A study of Mus musculus with 48 samples.

Results

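The genes described here are the nuclear-encoded subunits of the mitochondrial respiratory chain and the ATP synthase in mouse astrocytes. Members were taken by symbol, as genes named Ndufa, Ndufb, Ndufc, Ndufs or Ndufv with a number, Sdha to Sdhd, and all genes whose names begin with Uqcr, Atp5 or Cox4 to Cox8 plus a subunit letter a, b or c. Among 24421 genes listed per table, 82 had such a symbol, and 74 of these had a mean of at least 10 normalized reads in each of 6 tables. The 74 comprised 34 genes of complex I, 4 of complex II, 8 of complex III, 11 of complex IV and 17 of complex V. Atp5sl is counted with complex V by its symbol, although its product is known for complex I assembly, so not every member is a subunit. In the P28 hippocampus table Cox6b2, Cox7a1 and Cox8b also reached the minimum, giving 77, and in the P28 olfactory bulb table Cox7b2 did, giving 75. The gene closest above the minimum in the developmental tables was Atp5sl, with means of 23.8, 16.8 and 16.9 in cortex, hippocampus and olfactory bulb. The closest below were Cox6b2 in cortex and hippocampus, at 7.53 and 4.4, and Cox7b2 in olfactory bulb, at 3.92. The other genes below it in all 3 developmental tables were Cox6a2, Cox7a1, Cox8b, Cox8c, Ndufa4l2 and Ndufs5, and Ndufs5 and Cox8c were listed at 0 in every library. The mitochondrially encoded subunits were not analysed here.

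The series holds 48 RNA-seq libraries from cells labelled as astrocytes, taken from the olfactory bulb, hippocampus and cortex, and its title concerns inhibitory input, the GABA-B receptor of glia and astrocyte shape. Developmental groups at P1, P7 and P14 held 3 libraries each, except cortex P14 with 4, and their labels give no genotype, strain or treatment. At P28 the labels give the genotypes Gabbr1 control and Gabbr1 cKO, with 4 libraries of each in cortex and 3 of each in the olfactory bulb (the bulb from here on). The hippocampus had 2 control and 4 cKO libraries. All hippocampus and olfactory bulb libraries of P28, controls included, also carry the treatment label tamoxifen, as do 3 of the 8 cortex libraries, while the other 5 carry no treatment label. The labels name no strain, no Cre driver and no way of sorting the cells, and do not say whether the libraries of a group came from separate animals, so p-values measure only the spread between these libraries.

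The respiratory chain sits in the inner mitochondrial membrane. Complexes I and II pass electrons from NADH and succinate to ubiquinone, complex III passes them on to cytochrome c, and complex IV, cytochrome c oxidase, hands them to oxygen. Complexes I, III and IV pump protons, and complex V, the ATP synthase, uses the proton gradient to make ATP. Astrocytes are known for strong glycolysis, and they also hold mitochondria, including in their fine processes.

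Library depth was 1773226 to 15008466 reads in the developmental tables and 1859933 to 6352384 reads at P28. The 10 astrocyte markers looked at were all detected in the developmental cortex, and their summed level rose from 21366 to 28242 at P1 to 496464 to 554981 at P14. The summed level of 12 neuronal markers went the other way, from 8007 to 11228 at P1 to 316 to 578 at P14 in cortex and from 6164 to 8231 to 462 to 680 in hippocampus, where the astrocyte markers went from 13833 to 15917 to 427309 to 461104. In the bulb at P1 the neuronal markers, at 14847 to 18435, summed above the astrocyte markers, at 5043 to 7167. At P7 the bulb sums were 9482 to 14964 and 10605 to 19406, which overlap, and at P14 1994 to 3206 and 124253 to 141312. Dcx alone was at 13352, 10307 and 11482 in the bulb at P1, so this 1 gene made up most of the neuronal sum. The neuronal markers did not move together there from P1 to P7. Snap25 went from 459, 396 and 379 to 2089, 836 and 794, while Stmn2 went from 1607, 1459 and 1200 to 689, 674 and 1104. Sums of different genes do not measure shares of cells, and the part of neurons in the bulb results was not tested. Of the P28 libraries, 2 stood apart: the ribosomal precursor Rn45s took 0.594% of the reads in hippocampus cKO replicate 2 and 0.476% in control replicate 2 of the bulb, against 27% to 38% in the others. For the P28 comparisons of hippocampus and bulb, the member counts, the medians and the named members are also given without that library, an alternative chosen after the data had been seen. Gabbr1, the gene targeted in the cKO, was at 927 to 1930 normalized reads in the cortex controls and 89.8 to 211 in the cKO libraries. It was at 780 and 824 against 152 to 380 in hippocampus, and at 184 to 318 against 63.6 to 99.5 in the bulb, with no overlap in any region.

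Respiratory chain genes rose together between P1 and P14 in all 3 regions, and most of that rise came after P7. In cortex 68 of 74 members were higher at P14 than at P1 and 1 was lower, where 24% of all 11822 tested genes were higher and 40.3% lower (limma, Benjamini-Hochberg adjusted p under 0.05 over all tested genes). In hippocampus 62 of 74 were higher and none lower, against 21% and 28.5% of tested genes. In the bulb 53 were higher and none lower, against 24.8% and 31.4%. The median member difference on the log2(value + 1) scale was 0.77, 1.36 and 0.85 in the 3 regions, while the median over all tested genes was -0.27, -0.29 and -0.24. Higher in all 3 regions were 47 of the 74 members, 18 were higher in 2 regions, 6 in 1, and Ndufb7, Cox7a2l and Atp5sl in none. Such counts over regions were not taken for all tested genes, so only the shares per region can be compared. The members with the largest rise in the region where they rose least were Cox8a (1.40), Sdha (1.30), Sdhc (1.25), Ndufc1 (1.19) and Uqcrb (1.17). In these bulk libraries a change in the cells present and a change in RNA per cell cannot be told apart.

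**Figure D1:**
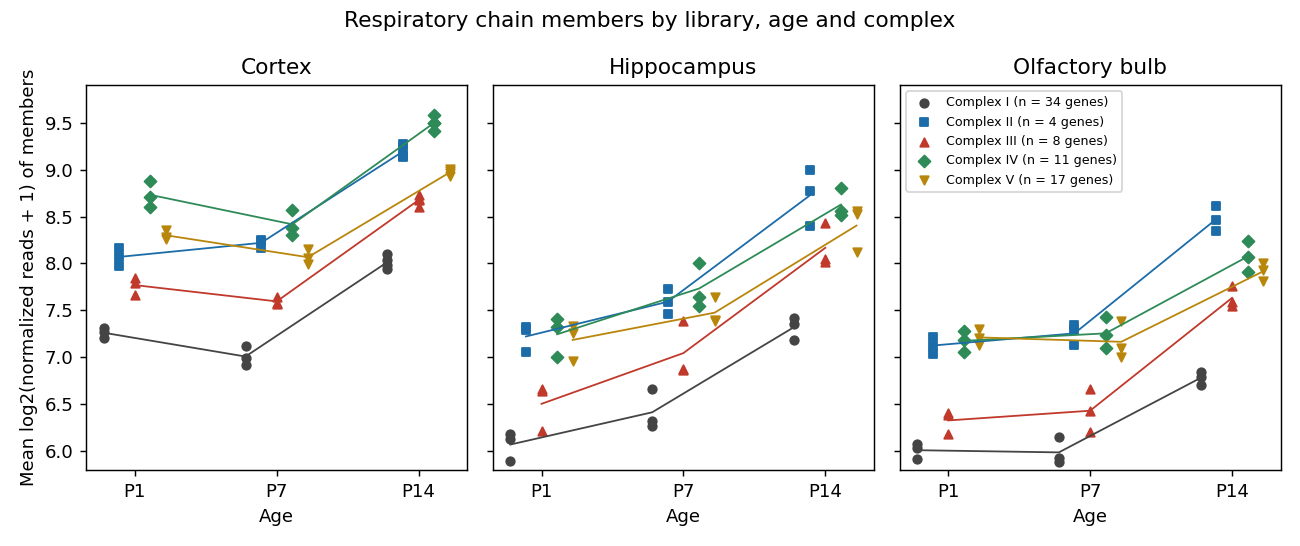
Mean log2(normalized reads + 1) of the members of each complex (vertical axis) in each library (points) at P1, P7 and P14, by region, with lines through the group means. Each complex ended above its P1 level in each region, and the cortex lines of complexes I, III, IV and V dip at P7.

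Set against total reads, the members took 0.744% to 0.853% of reads outside Rn45s in cortex at P1 and 1.03% to 1.09% at P14. In hippocampus the share was 0.375% to 0.478% at P1 and 0.664% to 0.796% at P14. In the bulb it was 0.422% to 0.45% and 0.651% to 0.668%. The P1 and P14 libraries did not overlap in any region. The rise was therefore also present without the deposited scaling. Other cell types moved over the same ages: beside the astrocyte and neuron markers, the 8 mature oligodendrocyte markers summed to 342 to 405 at P1 and 15363 to 26151 at P14 in cortex, and 7 choroid plexus markers to 32.1 to 125 and 4163 to 8604 in hippocampus. The 9 endothelial markers summed to 22.5 to 28.7 and 304 to 1561 in the bulb, and the 8 markers of dividing cells fell from 1295 to 1793 to 267 to 380 in cortex. The endothelial sums overlapped between these ages in cortex (42.9 to 537 and 96.2 to 895) and hippocampus (47.9 to 128 and 8.96 to 136). The choroid plexus sums overlapped in cortex (21.9 to 1124 and 52 to 704) and the bulb (48.4 to 108 and 75.5 to 218). Mature oligodendrocyte sums rose and dividing-cell sums fell in the other regions too. The part of these markers in the rise of the chain genes was not tested.

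Complex I, the NADH dehydrogenase, had 31 of 34 members higher at P14 than at P1 in cortex, 27 in hippocampus and 19 in the bulb, with median log2 differences of 0.70, 1.33 and 0.80. Ndufs1, the largest iron-sulfur subunit, led the cortex rises. Its cortex values were 178, 232 and 174 at P1, 267, 286 and 354 at P7, and 635, 564, 436 and 479 at P14, with no overlap between any pair of ages (P14 minus P1 1.43 ± 0.15 SE on the log2 scale, adjusted p = 2.3e-06). In hippocampus Ndufs1 went from 126 to 178 at P1 to 322 to 410 at P14 (1.29), and in the bulb from 154 to 164 to 248 to 454 (1.11). Ndufs1 lies at chr1:63143596-63176833 on the minus strand (GRCm38), where it overlaps Eef1b2 and Ino80dos, and since the counting's strand setting is not given, reads of overlapping genes cannot be told apart.

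Ndufs8, which holds a pair of iron-sulfur clusters, had the largest complex I rise in hippocampus. Its hippocampus values were 38.1, 32.5 and 37.5 at P1, 48.3, 64.4 and 51.1 at P7, and 145, 115 and 176 at P14 (1.96 ± 0.28 SE, adjusted p = 0.000136). It rose by 1.09 in cortex and 1.63 in the bulb. Ndufa6, an accessory subunit, had the largest complex I rise in the bulb, from 27.2, 31.3 and 23.7 at P1 to 79.5, 154 and 80.5 at P14 (1.83 ± 0.32 SE, adjusted p = 0.000569). The hippocampus P14 values of Ndufa6 were spread more widely, at 124, 168 and 52, the last of them close to the highest P1 value of 47.9. The flavoprotein subunit Ndufv1, which takes the electrons from NADH, rose by 0.65, 1.37 and 0.90 in cortex, hippocampus and the bulb. Of the 7 core complex I subunits, Ndufs3 and Ndufs7 were not called in the bulb (0.46, adjusted p = 0.197, and 0.75, adjusted p = 0.088), and the call of Ndufv2 there (0.38, adjusted p = 0.0489) was lost in 11 of 18 alternative settings. Ndufs3 shares 35.8% of its 50-base stretches with other transcripts, so its counts are less certain.

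Complex II, the succinate dehydrogenase, was called higher as a whole: 4 of 4 members in each region, with median log2 differences of 1.11, 1.51 and 1.44. It also belongs to the tricarboxylic acid (TCA) cycle. Sdha, its flavoprotein, was at 620, 449 and 535 in cortex at P1, 530, 564 and 636 at P7, and 1480, 1159, 1236 and 1372 at P14. In hippocampus it was at 291, 349 and 318, then 367, 439 and 473, then 832, 944 and 887. In the bulb it was at 315, 287 and 282, then 349, 452 and 379, then 926, 884 and 943. Every P14 value lay above every P7 value, and the rise from P1 was 1.30 ± 0.12, 1.47 ± 0.14 and 1.64 ± 0.14 (SE), with adjusted p-values of 6.26e-07, 6.15e-06 and 2.74e-06. Sdhc, a membrane anchor, rose by 1.36, 1.77 and 1.25. Sdhd, the other membrane anchor, rose by 0.91, 1.54 and 1.66, and Sdhb, the iron-sulfur subunit, by 0.92, 1.23 and 0.84.

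Complex III, the cytochrome bc1 complex, also had all of its members, 8 of 8, higher at P14 in each region, with medians of 0.96, 1.71 and 1.37. Uqcr10, a small subunit of this complex, had the largest rise of any member in hippocampus and in the bulb. In hippocampus it was at 90.5, 60.6 and 86.6 at P1, 121, 125 and 213 at P7, and 444, 540 and 366 at P14 (2.49 ± 0.26 SE, adjusted p = 1.36e-05). In the bulb it was at 60.2, 63 and 52.4, then 114, 71.5 and 53.4, then 197, 270 and 237 (1.98 ± 0.28 SE, adjusted p = 0.000118). In cortex its course was different, with 330, 277 and 369 at P1, 236, 236 and 175 at P7, and 628, 642, 669 and 603 at P14, so that all P7 values lay below all P1 values before the rise (P14 minus P1 0.97 ± 0.13 SE, adjusted p = 1.52e-05). Uqcrfs1, the Rieske iron-sulfur protein that takes electrons from ubiquinol, rose by 1.13, 1.79 and 1.6. The core proteins Uqcrc1 and Uqcrc2 rose by 0.95, 1.63 and 1.41, and by 0.59, 1.34 and 0.72. Uqcrb, which binds at the quinone site, rose by 1.17, 1.82 and 1.78, but 43.2% of its 50-base stretches also occur in other transcripts.

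Complex IV had 10 of 11 members higher in cortex, 9 in hippocampus and 8 in the bulb, with medians of 0.85, 1.53 and 1.08. Cox8a, a small subunit, was the one member among the 5 largest rises of each region. In cortex it was at 484, 435 and 461 at P1, 628, 486 and 358 at P7, and 1138, 1287, 1166 and 1288 at P14 (1.40 ± 0.15 SE, adjusted p = 1.84e-06). In hippocampus it was at 107, 106 and 106, then 222, 226 and 298, then 474, 562 and 609, with no overlap between the ages (2.35 ± 0.17 SE, adjusted p = 7.17e-07). In the bulb it was at 147, 128 and 82.7, then 179, 109 and 138, then 376, 294 and 448 (1.65 ± 0.26 SE, adjusted p = 0.000324). Cox5b, a nuclear-encoded subunit on the matrix side, rose by 0.74, 1.77 and 1.28. Cox5a, its partner there, rose by 0.81 and 1.48 in cortex and hippocampus and was not called in the bulb (0.50, adjusted p = 0.103). Cox6a1 lies at chr5:115345642-115348981 (minus strand) and Cox8a at chr19:7215153-7217616 (minus strand) in GRCm38.

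**Figure D2:**
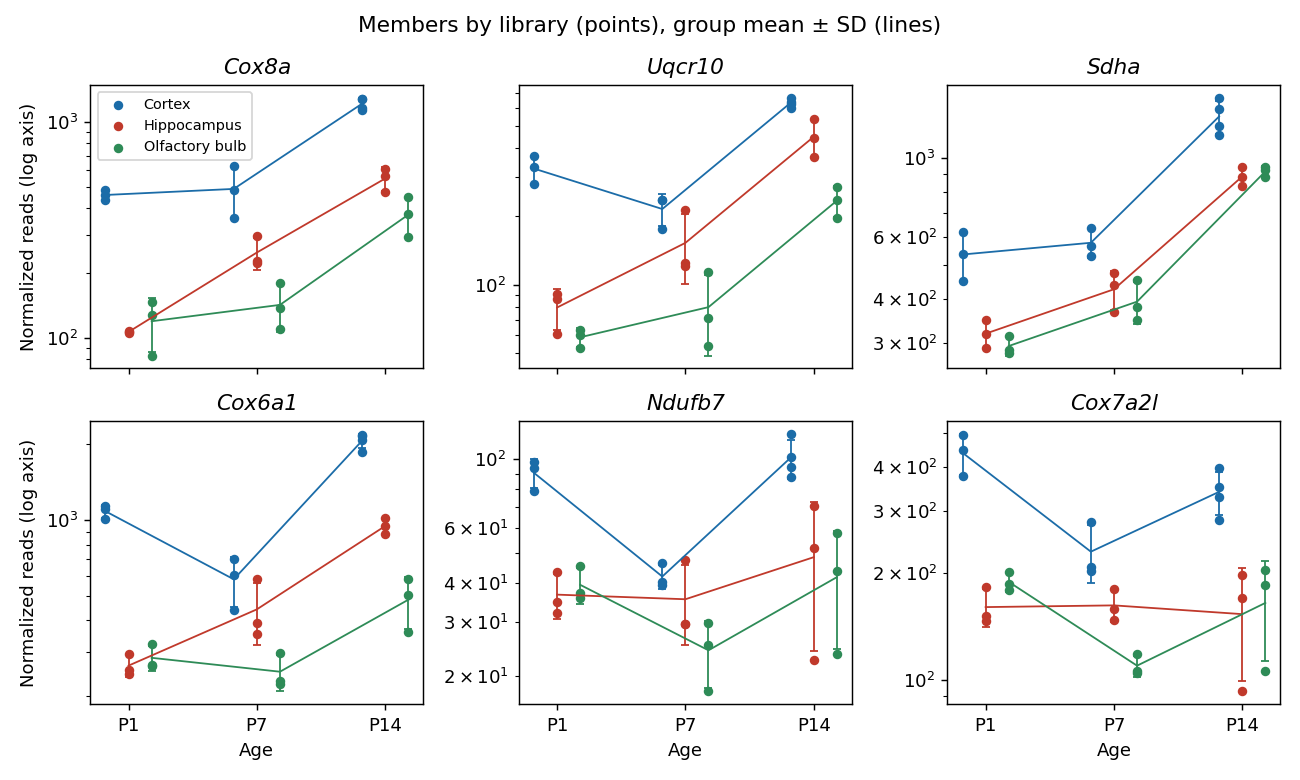
Normalized reads (logarithmic axis) of 6 members in each library (points) at each age, with the group mean and SD as lines, by region. Cox8a, Uqcr10 and Sdha ended above their P1 level in each region, Cox6a1 and Uqcr10 dipped at P7 in cortex, and Ndufb7 and Cox7a2l were not called higher at P14 than at P1 in any region.

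Complex V had 15 of 17 members higher in cortex, 14 in hippocampus and 14 in the bulb, with medians of 0.69, 1.22 and 0.77. The 17 include Atp5sl, which was called in no region. Atp5b, the catalytic beta subunit, was at 3054, 2047 and 1950 in cortex at P1, 1864, 2076 and 1803 at P7, and 4263, 4034, 4040 and 4112 at P14, and its rise was 0.84, 1.22 and 0.89 in the 3 regions. Atp5a1, the alpha subunit, rose by 0.69, 1.13 and 0.54, and Atp5c1, the gamma subunit of the rotor, by 0.72, 1.26 and 0.77. Atp5o, the stalk subunit known as the oligomycin sensitivity conferring protein, had the smallest cortex rise of the 20 core subunits looked at, at 0.44, and shares 89.8% of its 50-base stretches with other transcripts. Across complexes the core subunits were called higher in 20 of 20 cases for cortex, 20 of 20 for hippocampus and 17 of 20 for the bulb.

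The 3 genes that encode the same mature c subunit of the rotor ring did not share a course. Atp5g3 rose by 0.94, 1.85 and 1.53 in cortex, hippocampus and the bulb. Atp5g1 in hippocampus went from 70.5, 62.4 and 67 at P1 through 115, 103 and 158 to 319, 398 and 253 at P14 (2.24 ± 0.24 SE). Atp5g1 rose by 0.69 in cortex, and its bulb difference of 0.48 was not called (adjusted p = 0.109). Atp5g2 differed by -0.01 in cortex (adjusted p = 0.919) and -0.04 in the bulb (adjusted p = 0.892), and rose by 0.81 in hippocampus. Atp5g2 was at 308, 290 and 308 in cortex at P1, 200, 175 and 162 at P7, and 332, 315, 269 and 282 at P14, so P14 overlapped P1. The differences between the 3 genes were not tested, and 38.3% of the 50-base stretches of Atp5g2 occur elsewhere.

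Among genes with isoforms of restricted tissue range, the restricted form was low in the developmental libraries, and most widely expressed forms rose. Cox4i1, a complex IV gene outside the symbol rule, rose by 0.80, 1.39 and 0.85 between P1 and P14, while Cox4i2, its lung-enriched isoform, was at 7.9 or less in every developmental library. Ndufa4, counted here with complex IV, rose by 0.88, 1.22 and 1.46, while Ndufa4l2 was at 8.3 or less. The muscle forms Cox6a2 and Cox8b were at 5.7 or less and 2.5 or less in the developmental libraries, and Cox7a1 reached 14.8 in 1 cortex P14 library. Cox7a2, the widely expressed partner of Cox7a1, rose by 0.75 in cortex but was not called in hippocampus (0.52) or the bulb (0.13).

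A few members did not follow the rise. Ndufb7, an accessory subunit of complex I, was at 93.8, 98.2 and 79.3 in cortex at P1, 46.2, 40.2 and 39.4 at P7, and 102, 87.4, 94.3 and 121 at P14. It fell by 1.09 ± 0.18 (adjusted p = 0.000407) and rose by 1.24 ± 0.17 (adjusted p = 4.83e-05), and P14 did not differ from P1 by the test (0.16, adjusted p = 0.431). Its P14 minus P1 difference was 0.26 in hippocampus (adjusted p = 0.661) and 0 in the bulb (adjusted p = 0.996). Cox7a2l, known as a factor that joins complexes III and IV into supercomplexes, was at 492, 376 and 446 in cortex at P1, 280, 208 and 203 at P7, and 283, 396, 329 and 352 at P14. Its cortex P14 values overlapped P1, and the lower level at P14 (-0.37 ± 0.15 SE, adjusted p = 0.0408) was lost in 13 of 19 alternative settings, with TMM scaling giving -0.09 and adjusted p = 0.617. Cox7a2l was at 183, 147 and 152 in hippocampus at P1 and 170, 92.6 and 197 at P14. Ndufs4, an accessory subunit of complex I, differed by 0.42, 0.46 and -0.62 in cortex, hippocampus and the bulb, and only the cortex difference was called. Atp5sl, whose name matches the rule although its product is known for complex I assembly, had wide spread at levels of 2 to 36.3 and was called in no region.

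The interval from P1 to P7 differed in appearance between regions. In cortex 27 of 74 members were lower at P7 and 6 higher, where 18.1% of tested genes were lower and 15.6% higher. The median member difference was -0.26, against -0.10 over all tested genes. In hippocampus 9 members were higher and none lower, against 11.2% and 6.92% of tested genes, with a median of 0.39 against -0.03. In the bulb the 1 member called was Cox7b, higher, where 7.59% of tested genes were higher and 2.98% lower, and the median was 0. The 9 hippocampus calls rested on few libraries: leaving out any P1 or P7 library other than P7 replicate 2 brought the count to between 1 and 5, lowest without P7 replicate 3. Complex II took no part in the cortex fall, with 0 of 4 members called and differences of 0.10 to 0.20, while complex V had 9 of 17 lower, complex III 4 of 8, complex I 11 of 34 and complex IV 3 of 11.

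Cox6a1, a complex IV subunit, moved in opposite directions in cortex and hippocampus. In cortex it was at 1008, 1106 and 1140 at P1 and 699, 607 and 440 at P7, a fall of 0.92 ± 0.14 (SE, adjusted p = 0.000204), and then at 2153, 2169, 1865 and 2079 at P14. In hippocampus it was at 294, 253 and 246 at P1 and 391, 354 and 582 at P7, a rise of 0.71 ± 0.18 (SE, adjusted p = 0.0184), and then at 879, 946 and 1018. Neither pair of ages overlapped, and in the bulb P1 values of 322, 263 and 267 overlapped P7 values of 297, 224 and 229. Uqcr10 fell by 0.59 in cortex (adjusted p = 0.00419) and rose by 0.91 in hippocampus (adjusted p = 0.0329), a call lost in 6 of 18 alternative settings (adjusted p 0.00292 to 0.146). Of the 74 members, 14 had all cortex P7 libraries below all P1 libraries and all hippocampus P7 libraries above all P1 libraries, among them Uqcr11, Atp5g3 and Ndufs8. Among tested genes, 31.1% lay below in cortex and 24.4% above in hippocampus in this way, and 195 of the 11206 genes tested in both tables, 1.74%, did both. The regional tables were scaled separately, so the difference between regions was not tested.

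The 5 largest cortex falls were Ndufb7, Ndufa11 (-0.96), Cox7a2l (-0.93), Cox6a1 and Atp5k (-0.84). Ndufa11, a membrane subunit of complex I, did not end above P1 by the test (0.36, adjusted p = 0.0547). Atp5k, the e subunit of the ATP synthase, was at 155, 148 and 144 at P1 and 89.4, 82 and 77.5 at P7 before it reached 206 to 271 at P14. The cortex rises were Atp5s (1.19), Uqcrb (0.65), Ndufs1 (0.63), Atp5f1 (0.43) and Uqcrfs1 (0.34) among others. In hippocampus the largest rises were Cox8a (1.2), Cox7b (0.98), Uqcr10, Atp5g1 (0.88) and Ndufa12 (0.83). Cox7b in the bulb went from 103, 110 and 86.6 to 242, 282 and 158 (1.15 ± 0.30 SE, adjusted p = 0.0321), and this call was lost without any P1 or P7 library other than P7 replicate 3.

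Many respiratory chain transcripts are short, and transcript length moved with the cortex fall. Of the 40 members whose longest coding transcript is under 1000 bases, 20 were lower at P7 and 1 higher, with a median of -0.33. Of the 34 longer members 7 were lower and 5 higher, with a median of -0.11. Among all tested genes under 1000 bases the median was -0.44, and 35.7% of 440 were lower, against -0.08 and 17.3% of the longer genes. The short members therefore fell by less than short genes at large by the median, while 50% of them were called lower. For P14 against P7 the short members had a median of 1.13 and 95% were higher, while short genes at large had a median of 0.43 and 43.9% higher. The longer members had a median of 0.91 and 91.2% higher, against -0.21 and 17.5% of longer genes. The part of length in either interval was not tested, and the split was chosen after the values had been seen.

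From P7 to P14 the members rose in all 3 regions. In cortex 69 of 74 were higher and none lower, against 18.6% and 31.3% of tested genes, and the median was 1.04 against -0.19. All 27 members that had fallen by P7 in cortex were higher again at P14 than at P7. Low P7 values chose these 27, so a later rise was favoured for them. Of the cortex members not called at P7, 37 of 41 were higher at P14 too, as were 5 of the 6 that had risen. In hippocampus 51 were higher and none lower, against 12.5% and 17.7%, with a median of 1.01. In the bulb 49 were higher and none lower, against 20.4% and 26.6%, with a median of 0.88. Higher in all 3 regions over this interval were 41 members. Neither this count nor that of genes that fell and then rose in cortex was taken over all tested genes.

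The largest rises of this second interval fell in complexes I, III, IV and V. In cortex the largest rises were Cox6a1 (1.85 ± 0.13 SE, adjusted p = 2.25e-07), the complex I subunit Ndufb10 (1.84), Uqcr11 (1.82), Ndufa13 (1.57) and Uqcr10 (1.57). Uqcr11, a small complex III subunit, went from 108, 87.4 and 118 at P7 to 344, 395, 330 and 416 at P14, after 168, 148 and 163 at P1. In hippocampus the largest rises were Uqcr10 (1.58), Uqcrb (1.46), Ndufs8 (1.38), Atp5g1 (1.36) and Ndufb10 (1.32). In the bulb they were Uqcrfs1 (1.69), Ndufa6 (1.66), Uqcr10 (1.61), the complex I subunit Ndufc1 (1.55) and Uqcrb (1.47). Uqcr10 was among the 5 largest in each region. Across the 74 genes, the P14 minus P1 differences correlated between regions with Pearson r of 0.63 for cortex and hippocampus, 0.57 for cortex and the bulb and 0.66 for hippocampus and bulb, the P7 minus P1 differences with 0.14, 0.37 and 0.51, and the P14 minus P7 differences with 0.37, 0.22 and 0.43. Genes are not independent replicates, and the points of a region share its libraries.

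**Figure D3:**
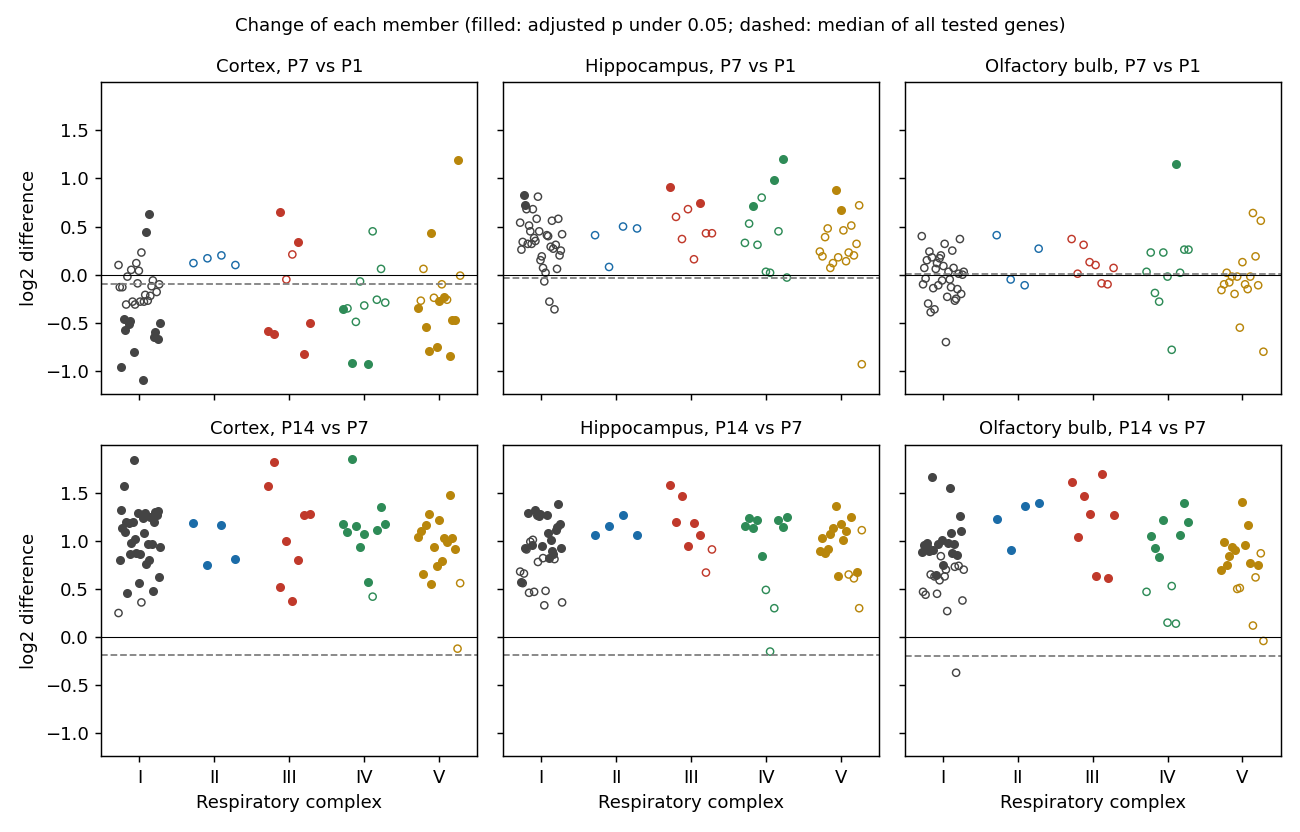
Log2 difference of each member (points, by complex) from P1 to P7 (upper row) and from P7 to P14 (lower row) in each region. Filled points passed an adjusted p under 0.05, and the dashed line is the median of all tested genes. In the lower row nearly all points lie above that line, while in the upper row the cortex points lie mostly below 0.

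Several of the members carry known binding motifs of nuclear respiratory factors close to their start, and not only members that rose. Ndufb7, called higher at P14 than at P1 in no region, holds the ETS motif described below. Atp5g2, not called in cortex or the bulb, holds the NRF1 motif. A link between the motifs and the rise was not tested. In the 250 bases before the RefSeq starts (GRCm38.p6), on both strands, the NRF1 motif, spelled GCGCA, any base, then GCGC, was found for 12 of 64 matched member genes, in 18.6% of their windows against 3.74% of 32851 windows of all genes. The ETS motif CCGGAAG, bound by the GABP factor, was found for 12 genes, in 17.1% of windows against 6.91%. The YY1 motif AANATGGCG was in 5.71% against 1.12%, and the estrogen-related receptor motif TCAAGGTCA in 1.43% against 0.387%. The 32851 windows include those of genes too low to be tested here, and windows of genes with several starts can overlap. Either of the first 2 motifs was found for 21 genes, and Sdha holds the NRF1 motif at 3 places. The 120 bases upstream of 5 members are shown, as read on the strand of the gene, with motif matches in capitals: Sdhd and Cox6a1 because each holds both motifs, Uqcr11 because it holds the ETS motif, and Cox8a and Uqcr10 because they had the largest hippocampus rises and hold none of the 4 motifs in the 250 bases. Sdhd is at chr9:50603850-50603969, Cox6a1 at chr5:115348959-115349078, Uqcr11 at chr10:80406822-80406941, Cox8a at chr19:7217617-7217736 and Uqcr10 at chr11:4704345-4704464, all on the minus strand.
Sdhd: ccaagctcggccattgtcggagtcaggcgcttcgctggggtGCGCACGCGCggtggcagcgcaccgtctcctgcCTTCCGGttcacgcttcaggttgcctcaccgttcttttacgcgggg
Cox6a1: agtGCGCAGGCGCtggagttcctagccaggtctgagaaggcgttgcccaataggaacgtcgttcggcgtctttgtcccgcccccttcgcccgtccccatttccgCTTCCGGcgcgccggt
Uqcr11: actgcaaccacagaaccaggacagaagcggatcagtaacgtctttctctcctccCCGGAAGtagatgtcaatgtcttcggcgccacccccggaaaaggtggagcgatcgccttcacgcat
Cox8a: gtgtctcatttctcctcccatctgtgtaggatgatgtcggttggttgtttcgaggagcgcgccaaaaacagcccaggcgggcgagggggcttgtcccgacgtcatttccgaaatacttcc
Uqcr10: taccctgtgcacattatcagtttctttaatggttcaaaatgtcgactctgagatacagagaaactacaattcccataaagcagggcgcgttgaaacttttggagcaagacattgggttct
In the Sdhd and Cox6a1 windows the NRF1 motif lies upstream of the ETS motif, which is read on the other strand. A match describes letters only, and the absence of one in Cox8a and Uqcr10 says nothing about the factors.

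The genes of the TCA cycle, which feeds electrons to the chain, rose with it: at P14 13 of 13 stood above their P1 level by the test in every region, with medians of 1.10, 1.55 and 1.34. Of all tested genes 24%, 21% and 24.8% were higher. The largest rise in cortex was Suclg1 (1.72), a subunit of succinyl-CoA ligase, and in hippocampus and the bulb it was Suclg2 (2.54 and 4.26), the GTP-forming subunit of the same enzyme. Suclg2 in the bulb went from 53.1, 48.4 and 46.9 at P1 to 1159, 921 and 841 at P14. The smallest rises were Mdh2, Dlst and Mdh2 (0.65, 1.01 and 0.52). Chain genes outside the symbol rule were higher for 9 of 10 tested in each region, beside the same shares of all tested genes, led by Cycs, cytochrome c, in cortex and hippocampus (1.47 and 1.93) and by Higd1a in the bulb (2.39). The exception was Coq10a, a coenzyme Q-binding protein, which was lower in hippocampus (-2.39) and not called elsewhere.

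Of the assembly factors, which build the complexes but are not part of them, most were not called. In cortex 14 of 42 tested were higher and 1 lower (median 0.37), in hippocampus 6 higher and 1 lower of 42 (median -0.04), and in the bulb 10 higher and 3 lower of 38 (median 0.12). Of all tested genes 24%, 21% and 24.8% were higher and 40.3%, 28.5% and 31.4% lower, so the shares called higher lay much nearer to all genes than those of the chain members did. The largest rises were Taco1 in cortex (1.64), a translation activator of a complex IV subunit, Cox17 in hippocampus (1.69), a copper chaperone, and Cox14 in the bulb (2.05). The lowest hippocampus value, Cox19 (-1.29), was not called. Cox20, a complex IV chaperone, was lower in all 3 regions (-0.78, -0.90 and -1.19), and Coa7 had the largest fall in the bulb (-1.54).

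Regulators of mitochondrial biogenesis did not rise as a group. In cortex 2 of 12 tested were higher and 4 lower. In hippocampus 3 of 11 were higher and 3 lower, and the bulb had 1 of 11 higher and 5 lower. With so few genes these counts are not set apart from the 24%, 21% and 24.8% of tested genes that were higher and the 40.3%, 28.5% and 31.4% that were lower. Ppargc1a, the coactivator PGC-1alpha, rose at each step: it was at 299, 350 and 327 in cortex at P1, 533, 557 and 595 at P7, and 746, 731, 816 and 928 at P14. Its rise from P1 to P14 was 1.30 in cortex, 2.39 in hippocampus and 2.63 in the bulb, the largest of its list in each region. Nrf1, the factor named by the motif above, was lower in hippocampus (-2.19) and the bulb (-1.91) and not called in cortex (-0.65, adjusted p = 0.0803). Gabpb1, a subunit of the GABP factor, had the largest fall in cortex (-1.81) and the bulb (-2.46). Values of Gabpa, another GABP subunit, overlapped in the bulb, at 437, 476 and 495 at P1 and 447, 489 and 830 at P14. In hippocampus the largest fall was that of Tfb1m (-2.69), a mitochondrial rRNA methyltransferase. Tfam, which packages mitochondrial DNA, was called in no region (-0.06, -0.43 and -0.32).

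The list of carriers and coupling proteins holds inner-membrane carriers and uncoupling proteins, the outer-membrane channels Vdac1, Vdac2 and Vdac3, a mitochondrial creatine kinase and the ATP synthase inhibitor Atpif1. Of 10 tested, 5, 6 and 6 were higher in cortex, hippocampus and the bulb and 3, 2 and 3 lower, beside 24%, 21% and 24.8% of tested genes higher and 40.3%, 28.5% and 31.4% lower. The phosphate carrier Slc25a3 had the largest rise in cortex (1.09), and the uncoupling protein Ucp2 in hippocampus (2.05) and the bulb (2.58). Slc25a4, an ATP and ADP exchanger, rose by 1.03, 1.54 and 1.11. Slc25a27, a brain uncoupling protein abundant in neurons, had the largest fall in each region (-3.92, -3.21 and -4.36), beside the fall of the neuronal markers, and their part in it was not tested.

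**Figure D4:**
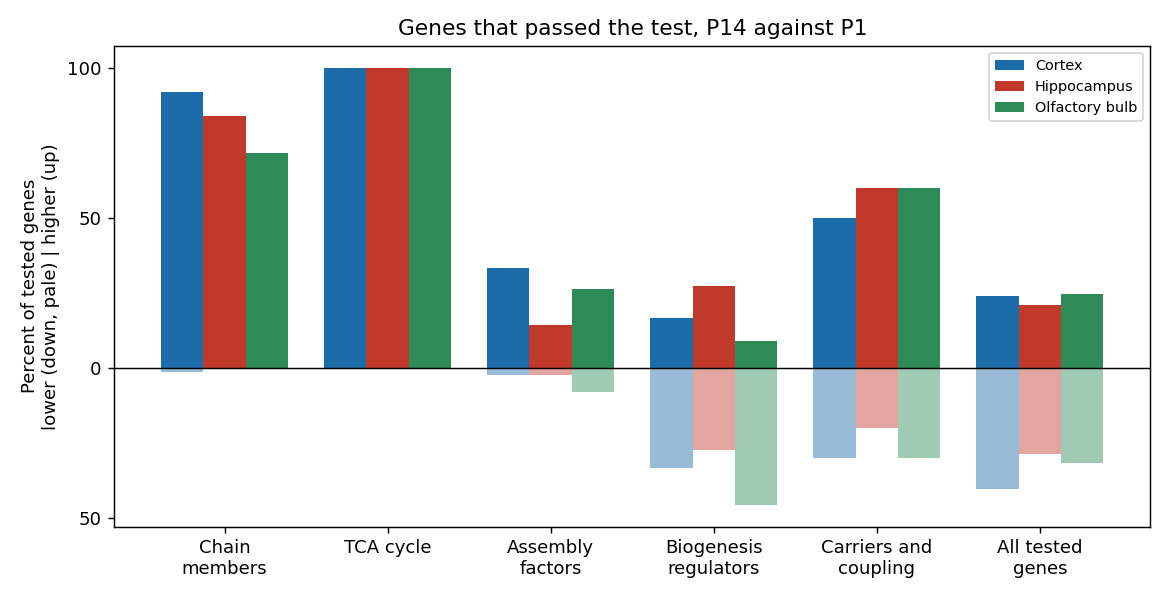
Percent of tested genes called higher (bars upward) and lower (pale bars downward) at P14 against P1, for chain members, 4 further mitochondrial lists and all tested genes, by region. The TCA cycle reaches 100% in each region, and assembly factors and regulators lie far below the chain members.

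At P28 no respiratory chain member was called between Gabbr1 cKO and control in any region. In hippocampus and the bulb limma called no tested gene at all, not even Gabbr1, whose values did not overlap between genotypes. The absence of calls there therefore does not show that the members were unchanged. In cortex 0 of 74 were called by limma, against 0.00982% of tested genes in either direction, and 0 had an unadjusted p under 0.05, against 2.17%. In hippocampus 0 of 77 were called, against 0% of tested genes, and 4 had an unadjusted p under 0.05, against 2.54%. Without cKO replicate 2, 6 did, against 5.81%. In the bulb 0 of 75 were called, against 0%, and 3 had an unadjusted p under 0.05, against 3.02%. Without control replicate 2, 0 did, against 3.38%. edgeR and DESeq2 on recovered reads called 0 members in each region as well. The median log2 difference, cKO minus control, was 0, -0.32 and 0.18 in cortex, hippocampus and the bulb.

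In cortex the members with the smallest unadjusted p were all of complex I. Ndufs3 was at 156, 131, 93.2 and 96.1 in control libraries against 128, 191, 195 and 129 in the cKO libraries (0.43, 95% interval -0.13 to 0.99, adjusted p = 1). Ndufv1 was at 109, 78.2, 77.8 and 96.1 against 168, 121, 126 and 85.4, and Ndufa2, an accessory subunit, at 79.2, 43.2, 44.9 and 75.4 against 122, 127, 58.3 and 62.4. All 3 overlapped between genotypes. A larger division ran across genotype: the 3 cortex libraries with the tamoxifen label were lower on average than the 5 without it in all 74 members, with a median difference of -0.48. The members summed to 13633 to 15504 in those 3 and 17534 to 22495 in the other 5, and Rn45s took 27% to 28% against 33.4% to 35.8% of reads. The titles of the 3 are also written in another style than those of the 5, so treatment and any separate handling cannot be told apart. The labels do not say that the 5 went untreated, and Gabbr1 was at 89.8, 96.5 and 134 in the cKO libraries among them. Within the 5 the median cKO minus control difference was -0.17, within the 3, with 1 cKO library, -0.04, and with this division as a covariate -0.12 with 0 called.

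**Figure D5:**
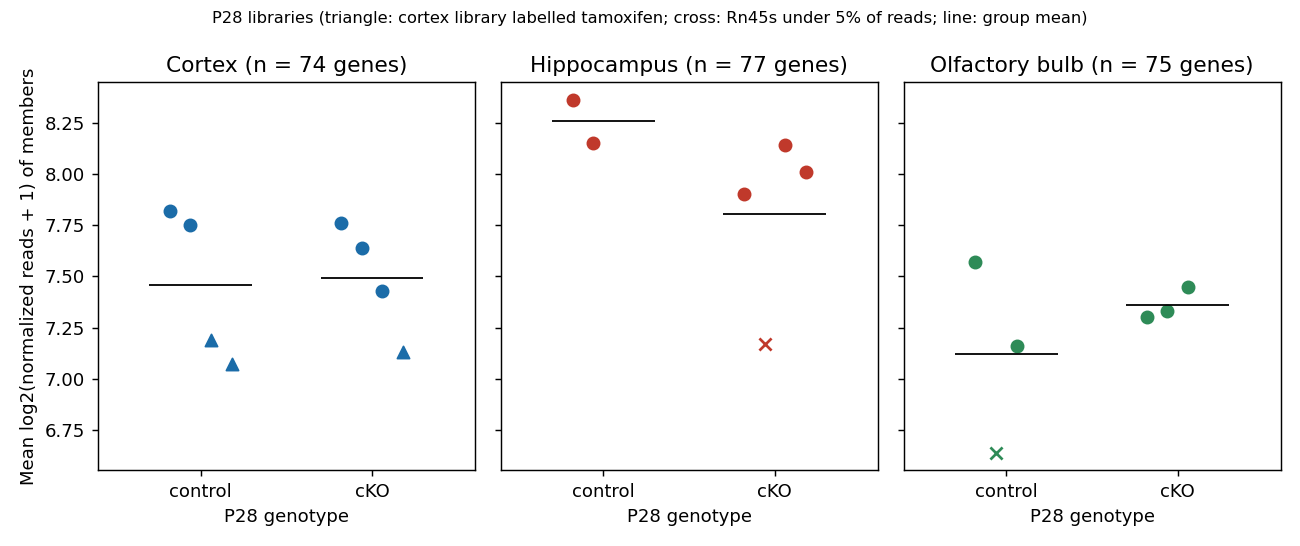
Mean log2(normalized reads + 1) of the members in each P28 library (points), by genotype and region, with the group mean as a line. Triangles are the cortex libraries labelled tamoxifen, which also differ in the style of their titles and lie lowest in both genotypes. Crosses are the libraries with little Rn45s, each the lowest of its table.

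In hippocampus 22 of 77 members had all cKO libraries below both controls and 0 above, where 7.92% and 7.08% of tested genes did. Without cKO replicate 2 it was 26 below and 0 above, against 11.5% and 11%. Cox8b, the muscle form of Cox8a, was at 72 and 82.7 in control libraries against 7.7, 8.7, 21.6 and 47 in the cKO libraries (-2.17, 95% interval -3.93 to -0.41, adjusted p = 0.936). Cox7a1, also a muscle form, was at 48.5 and 22.2 against 1, 0, 9.6 and 8.5 (-3.18, interval -6.19 to -0.17, adjusted p = 0.936). It passed the minimum mean only through the controls, with means of 35.4 in control and 4.76 in cKO libraries. A difference was thus built into its selection, and nothing is read from it. Cox7a1 is still included in the counts and medians of the 77 members, among them the 22 and 26 that lay below the controls. Uqcrb was at 256 and 271 against 77.5, 121, 213 and 146 (-1.01, interval -1.93 to -0.08, adjusted p = 0.936). Cox8b and Uqcrb did not overlap between genotypes, and without cKO replicate 2 their differences were -1.89 and -0.97 (adjusted p = 0.835 for each). The 7 choroid plexus markers summed to 70151 to 142577 in control libraries against 12184 to 129395 in the cKO libraries, and their part in these values was not tested.

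The hippocampus cKO library with little Rn45s, replicate 2, had a complex I mean log2 level of 6.88 where the other cKO libraries had 7.6, 7.67 and 7.55. Its values were uneven: Ndufs8 was at 14.4 and Ndufa13 at 67.9, but Ndufs1 at 930 and Uqcrc2 at 1073. Members under 1000 bases deviated in it by a median of -0.94 from the rest of its group and longer ones by -0.20. Without it the median genotype difference was -0.19 in place of -0.32, with 63 of 77 members below 0 in place of 65. With all libraries kept, tested genes under 1000 bases had a median difference of -0.40, near the -0.45 of the 43 short members. Longer tested genes had a median of -0.03 and the 34 longer members one of -0.23. The part of length in the genotype difference was not tested.

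In the bulb 4 members lay above and 2 below the controls without overlap, against 5.3% and 4.71% of tested genes. Without control replicate 2 it was 5 above and 2 below, against 9.2% and 8.22%. Ndufv1 was at 94.1, 46 and 98.4 in control libraries against 140, 157 and 119 in the cKO libraries (0.86, 95% interval 0.05 to 1.68, adjusted p = 0.877). Atp5g1 was at 152, 88.5 and 120 against 164, 194 and 226, and Atp5s, the coupling factor B, at 93, 189 and 43.5 against 24.1, 42.8 and 39.8. Ndufv1, Atp5g1 and Atp5s did not overlap between genotypes. Without control replicate 2, whose value is the second of each set, their differences were 0.51, 0.51 and -0.86 in place of 0.86, 0.71 and -1.38 (adjusted p = 0.986 for each). Cox7b2 passed the minimum mean through a single control library at 111, with 0 to 9 in the other 5. That library, control replicate 2, was the one with little Rn45s, and it held Uqcrc1 at 15.3 and Atp5c1 at 1789. Its short members deviated by a median of -0.88 from the rest of its group and its longer ones by -0.03. Without it the median genotype difference was -0.02 in place of 0.18, with 39 of 75 members below 0 in place of 22.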

How the data were processed

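The authors deposited a normalized signal for each gene, in 6 tables that separate the regions and the developmental ages from P28. The submitters' processing notes name FastQC, MultiQC, STAR 2.5.0a, DESeq2 1.20.0 and the build mm10 without a role, and the counter, annotation and strand setting are not given in the sources used here. Very small amounts of total RNA went into the Trio RNA-seq kit, per the labels' protocols. In all 48 columns the deposited signal values were whole multiples of 1 step per library, so reads were recovered (100% whole within 0.01). In olfactory bulb P28 cKO replicate 2 the step is near 1, which makes this a weak check there. The tables were scaled separately, so tests were made only within a table.

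Genes with a table mean of at least 10 were transformed as log2(value + 1), which understates the change of low genes, and compared with limma 3.58.1 (lmFit, eBayes with trend) in R 4.3.3. P-values were adjusted by Benjamini-Hochberg over all tested genes, and an adjusted p under 0.05 was called. The fit of a region used all of its ages. The quasi-likelihood test of edgeR 4.0.16, and DESeq2 1.42.0, were run on the recovered reads. Further alternatives changed the pseudocount (0.5 or 8), the minimum mean (none or 100) and the scaling (TMM, median ratio or quantile), or used no trend, array weights, only the 2 ages compared, and leaving out each library. The procedure was tested on simulated data. Groups came from the labels, and replicate numbers only name a library.

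Named genes were 20 core subunits, isoform pairs, the 5 largest non-overlapping rises and falls of each age comparison, the 3 smallest p-values of each genotype comparison where fewer than 3 were called, the members called in the same direction in all regions, and, for the other mitochondrial lists, counts with the largest rise and fall. Other members and genes named in passing were chosen after their values were seen. Some genes that meet this rule are not reported here. Members and lists were chosen with earlier results of these data known. Gene positions and transcript lengths came from GENCODE M21 (GRCm38, the build that mm10 names), and promoter sequences from RefSeq on GRCm38.p6, which matched 64 of 74 members. Gene sharing was judged from 50-base stretches of annotated transcripts.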

Additional observations from a re-analysis of the deposited data

Results flagged for a closer look

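In a group of 4 libraries, 3 of 67 values looked at had 1 library far from the rest, where chance gives about 1 in 20. The mean log2 level of complex I in hippocampus P28 cKO replicate 2 was 6.88, below 7.6, 7.67 and 7.55 in the other cKO libraries. Atp5c1, the gamma subunit of the ATP synthase, was at 858.1 in cortex P14 replicate 3, below 975.7, 957.8 and 956.8. Sdhd, a membrane anchor of complex II, was at 384.2 in cortex P14 replicate 4, above 328, 317.6 and 318.2.

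From P1 to P7 some members moved one way in every cortex library and the other way in every library of another region. Atp5k, the e subunit of the ATP synthase, had log2 differences of -0.84 in cortex, 0.51 in hippocampus and 0.64 in the olfactory bulb. The olfactory bulb difference of Atp5k was not called. Cox6a1 had -0.92 in cortex and 0.71 in hippocampus, and Uqcr10 had -0.59 and 0.91. The mean log2 level of all members differed by -0.23 in cortex and 0.37 in hippocampus. The difference between regions was not tested, since their tables were scaled separately.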

How the results depend on the processing

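No called difference changed direction under the alternatives run. Of 135 gene results, 5 that were not called took both signs: P14 minus P1 of Atp5g2 in cortex and bulb, Cox7a2 in bulb and Cox7a2l in hippocampus and bulb. The member median of the bulb at P28, 0.18, was -0.02 without control replicate 2. Of 2445 recomputed values for 135 gene results, 2369 kept their side of the threshold, 66 lost it and 10 gained it, and the cause was not tested. The count of called members for hippocampus P7 against P1, 9, was 3 without the trend, 23 with array weights (21 higher, 2 lower), 14 with DESeq2 and 17 with only the 2 ages, and 1 to 6 with each library left out. For olfactory bulb P7 against P1, 1, it was 2 under a minimum mean of 100, TMM, quantile scaling and edgeR, 0 without the trend, 6 with array weights and with only the 2 ages, 3 with DESeq2, and 0 to 1 with each library left out. The cortex counts for P7 against P1 (33), P14 against P7 (69) and P14 against P1 (69) ranged over 27 to 38, 67 to 71 and 66 to 72 under the alternatives run. For hippocampus P14 against P7 and P1 (51 and 62) the ranges were 36 to 59 and 47 to 68, and for olfactory bulb (49 and 53) they were 35 to 59 and 36 to 63. The P28 counts were 0 under each alternative run. TMM scaling moved the median of all tested genes in cortex P14 against P1 from -0.27 to 0.01 and that of the members from 0.77 to 1.05. Low counts and few libraries limit the low members such as Atp5sl. No paired analysis was possible because the library numbers in the labels are unique and replicate numbers only name libraries.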
